A study of Mus musculus with 6 samples.

Results

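Signals of Pik3c2g and of 4 genes grouped with it under the foetal X zone of the mouse adrenal, Akr1c18, Thrb, Nr2f2 and Cdh1, were compared in adrenal glands with and without chromogranin A (Chga). All probe sets that the platform annotation assigns to these symbols were taken, dim ones included. Of the 5 genes, 4 had a probe set, with 5 probe sets in all among the 12422 probe sets and 8251 named genes of the array. Akr1c18 had none under its symbol and was not analysed here. Chga knockout mice gave 3 arrays and wild-type controls another 3, all from adrenal glands of males aged 12 weeks. The labels cite 1 publication for both lines (Mahapatra et al.) and name neither a treatment nor a genetic background. The set was chosen by the signals of these same arrays, on which Pik3c2g differed between the groups, so that the differences of the members are given as a description, with no p-value.

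The X zone is a ring of cortical cells at the border with the medulla that is left over from the foetal adrenal cortex of the mouse. It is known to regress at puberty in males and at the first pregnancy in females, and its function is not settled. Akr1c18 encodes a progesterone-inactivating reductase and is its usual marker, Pik3c2g marks it too, and Thrb, the beta receptor of thyroid hormone, is known from mouse work to be expressed there and to mediate effects of thyroid hormone on the zone. Nr2f2 and Cdh1 are expressed in other tissues as well. All mice here were males past puberty, and whether their glands still held an X zone was not analysed, so that the values below are those of the genes and not of the zone.

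Values are array signals on a linear scale, already scaled by the submitters to a common mean, and the median signal of an array lay between 953 and 1077 in knockout and between 967 and 1092 in wild-type arrays. A probe set was tested if its mean log2 signal over the 6 arrays reached the 40th percentile of all probe sets, a signal near 582. The deleted gene read 1189, 858 and 951 on knockout arrays 1 to 3 by its brighter Chga probe set, against 46719, 30213 and 35306 on wild-type arrays 1 to 3, so that the labels fit the targeted gene. Whether that probe set lies in the deleted part was not analysed here. Cortex genes were bright in both groups: Cyp11a1, which starts steroid synthesis, read 63838 to 75125 in knockout and 63721 to 76533 in wild-type arrays. The Y-linked Eif2s3y read 1041 to 1584 in knockout and 844 to 2139 in wild-type arrays, on a probe set that a sequence family may share. Xist, the X-inactivation transcript, was dim, at 151 to 329 in knockout and 233 to 366 in wild-type arrays. The Y-linked Kdm5d and Uty were left out of the test as dim too. Kdm5d read 75.9 to 373 in knockout and 67.7 to 156 in wild-type arrays, and Uty 426 to 740 and 54.5 to 419.

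Pik3c2g, which encodes the gamma isoform of class II phosphoinositide 3-kinase, a lipid kinase that phosphorylates membrane phosphoinositides, had the largest difference between the groups among the 5 member probe sets, lower in the knockout. Its probe set read 682, 245 and 218 on knockout arrays 1 to 3, against 5110, 5850 and 6099 on wild-type arrays 1 to 3. The groups did not overlap, and the lowest wild-type array was 7.50 times the highest knockout array. Knockout array 1 stood above the other knockout arrays, which lay near each other and below the filter level.

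The mean signal of Pik3c2g was 382 ± 260 (SD, n = 3) in knockout glands, against 5687 ± 515 (SD, n = 3) in wild-type glands. The log2 difference was -4.02 ± 0.38 (SE, on the log2(signal + 16) scale, knockout minus wild type), which is 16.3-fold lower in the knockout. Array by array, the signal was 8.15-fold, 21.8-fold and 24.3-fold below the wild-type geometric mean on knockout arrays 1, 2 and 3. Among the 7453 tested probe sets, 2 fell further, and both belong to Chga. This rank restates the difference by which Pik3c2g was chosen, and probe sets left out as dim were not ranked. Pik3c2g passed the filter through its wild-type signal, with geometric means of 333 in knockout and 5671 in wild-type arrays. In whole glands, fewer cells that express Pik3c2g and less of its RNA per cell cannot be told apart.

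Relative to its mean, Pik3c2g varied more among knockout arrays, with a coefficient of variation of 68.2%, than among wild-type arrays, with 9.0%. Over all tested probe sets the median coefficient came to 16.2% in knockout and to 14.6% in wild-type arrays, and 54.7% of them varied more in the knockout. These medians are not matched for brightness. Pik3c2g lay at percentiles 21.1 to 42.2 of the knockout arrays and 84.2 to 87.2 of the wild-type arrays.

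The promoter windows of Pik3c2g and Thrb are shown because Pik3c2g and, on knockout arrays 2 and 3, Thrb had signals below every wild-type array, and because thyroid hormone receptors, the COUP-TF family and the steroidogenic factor Nr5a1 are all known to bind variants of the core motif AGGTCA. The windows are RefSeq sequences of build GRCm38.p6, from 250 bases before to 50 bases after an annotated start, all on the plus strand. They cover chr6:139613822-139614121 and chr6:139841195-139841494 for the upstream and downstream starts of Pik3c2g and chr14:17660710-17661009 for the upstream start of Thrb. Capitals mark AGGTCA on either strand.
Pik3c2g upstream start: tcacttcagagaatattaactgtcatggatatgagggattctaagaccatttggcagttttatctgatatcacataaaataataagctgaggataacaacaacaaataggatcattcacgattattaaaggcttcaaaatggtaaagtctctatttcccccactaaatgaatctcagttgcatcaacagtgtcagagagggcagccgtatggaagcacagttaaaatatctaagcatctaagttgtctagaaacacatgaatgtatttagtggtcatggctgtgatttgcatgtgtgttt
Pik3c2g downstream start: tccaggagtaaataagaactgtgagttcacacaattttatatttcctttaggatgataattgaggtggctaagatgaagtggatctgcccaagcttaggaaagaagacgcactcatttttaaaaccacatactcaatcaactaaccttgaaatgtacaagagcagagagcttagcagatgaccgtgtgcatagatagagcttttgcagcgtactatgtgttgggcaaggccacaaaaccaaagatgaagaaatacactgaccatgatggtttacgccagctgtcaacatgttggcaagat
Thrb upstream start: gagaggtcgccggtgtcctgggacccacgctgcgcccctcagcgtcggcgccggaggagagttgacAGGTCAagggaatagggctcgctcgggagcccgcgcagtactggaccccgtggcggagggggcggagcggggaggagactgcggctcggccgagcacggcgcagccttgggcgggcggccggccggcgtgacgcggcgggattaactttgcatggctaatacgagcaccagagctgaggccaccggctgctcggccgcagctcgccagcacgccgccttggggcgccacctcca
Neither Pik3c2g window held the motif. The Thrb window held it once, 184 bases before the start.

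Of the 5 members, 4 had windows in the RefSeq table, 6 in all, and 2 of these held AGGTCA: the Thrb window shown and that of Akr1c18, 28 bases into the transcript. Among the 32851 windows of the same length, 16.3% held it. The longer motif CAAGGTCA, which contains AGGTCA, was in 0 of the 6 windows and in 1.56% of all. The thyroid hormone type of repeat, AGGTCA followed by another AGGTCA after any 4 bases, was in 0 of the 6 and in 0.0152% of all. Both Pik3c2g windows were poor in G and C, at 36.0% and 40.7%, beside a median of 52.7% over all windows. The Thrb window shown reached 72.7% with 37 CpG dinucleotides, whereas the window of the downstream Thrb start, not shown, had 46.0%, 4 CpG and no AGGTCA, and the median over all windows was 7 CpG.

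Thrb, the beta receptor of thyroid hormone, split the knockout arrays. Its only probe set read 859, 180 and 238 on knockout arrays 1 to 3, against 812, 1211 and 962 on wild-type arrays 1 to 3. Knockout array 1 lay inside the wild-type range, whereas knockout arrays 2 and 3 lay below every wild-type array, so that the groups overlapped. Its mean log2 signal was at percentile 39.9 of all probe sets, just under the filter, and Thrb was left out of the test as dim.

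Thrb averaged 425 ± 377 in knockout glands, against 995 ± 202 in wild-type glands (SD, n = 3 each). The log2 difference was -1.51 ± 0.54 (SE) over all 3 knockout arrays and -0.19 with knockout array 1 alone. With knockout array 1 alone, the log2 difference of Pik3c2g was -3.03.

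Nr2f2, an orphan nuclear receptor of the COUP-TF family that is found in mesenchyme, veins and steroidogenic tissue, overlapped between the groups. Its brighter probe set read 2740, 1693 and 2089 on knockout arrays 1 to 3, against 2415, 2451 and 2167 on wild-type arrays 1 to 3. The wild-type arrays lay between the highest and the lowest knockout array, and the log2 difference was -0.13 ± 0.21 (SE). A second probe set was dim, with 82.1, 113 and 102 in knockout and 102, 224 and 44.9 in wild-type arrays. Its suffix marks a probe set shared by a sequence family, and its groups overlapped too.

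Cdh1, which encodes the epithelial adhesion protein E-cadherin, had overlapping groups too. It read 1835, 2256 and 3628 on knockout arrays 1 to 3, against 2047, 2884 and 2526 on wild-type arrays 1 to 3. Cdh1 averaged 2573 ± 938 in knockout glands, against 2486 ± 420 in wild-type glands (SD, n = 3 each), and the log2 difference was 0.00 ± 0.26 (SE). Knockout array 3 was the highest of the 6 arrays and knockout array 1 the lowest. Markers of other epithelia were dim on average: 0 of 10 on the array passed the filter, their summed signal was 1499 to 2944 in knockout and 1449 to 2079 in wild-type arrays, and the epithelial adhesion gene Epcam read at most 101 in knockout and 93.4 in wild-type arrays. Single arrays exceeded the filter level for the tight junction gene Cldn4, which reached 888 in knockout and 660 in wild-type arrays, and for its relative Cldn3, which reached 617 in knockout and 535 in wild-type arrays.

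**Figure D1:**
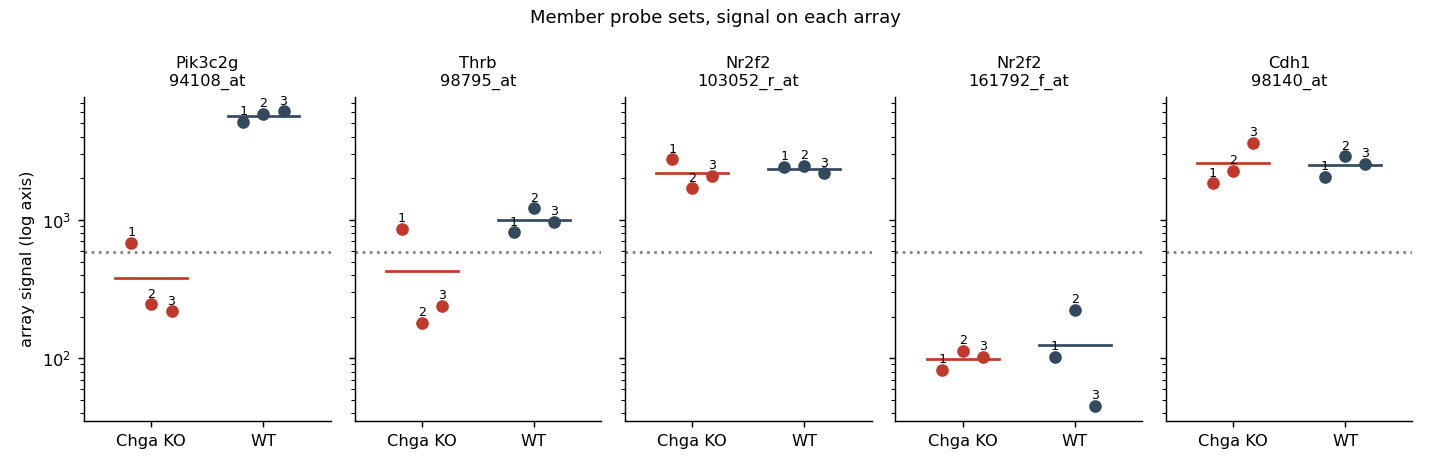
Signal of each of the 5 member probe sets on every array (log axis), with Chga knockout arrays left of wild-type arrays, array numbers above the points, a bar at each group's mean and a dotted line at the filter level of about 582. Pik3c2g lies between 218 and 682 in the knockout and between 5110 and 6099 in the wild type, Thrb is low on knockout arrays 2 and 3 but not on array 1, and the groups overlap for both Nr2f2 probe sets and for Cdh1.

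Of the 3 member probe sets bright enough for the fit over all probe sets, 1 was past limma's threshold, Pik3c2g, lower in the knockout, beside a background of 0.443% of the 7453 tested probe sets. Of the 5 member probe sets, 1 had groups that did not overlap, with all knockout arrays below, beside 6.92% of all 12422 probe sets in that direction and 13.5% in either. Among the tested probe sets, 8.83% had all knockout arrays below and 7.55% all above. The members were chosen with this comparison known, so that neither count is a test of them, and nothing is read from either.

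None of the other phosphoinositide 3-kinase genes measured, which encode catalytic and regulatory subunits, passed the test. Of 13 such genes, 6 had a probe set and 4 were tested, and 0 passed in limma, with 1 at an unadjusted p under 0.05. The class II relative Pik3c2a was dim, with 367, 291 and 552 in knockout and 236, 600 and 338 in wild-type arrays on its brighter probe set, and its groups overlapped. The regulatory subunit gene Pik3r1 averaged 1658 ± 352 in knockout glands, against 2685 ± 662 in wild-type glands (SD, n = 3 each), a log2 difference of -0.68 (limma adjusted p = 0.389). The catalytic subunit gene Pik3ca differed by 0.17 and the regulatory subunit gene Pik3r2 by -0.33 on the log2 scale.

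Genes that make or remove other phosphoinositides, and the kinase branch below them, did not pass either. Of 12 turnover genes tested, 0 passed in limma and 2 had an unadjusted p under 0.05. Pip4k2c, a phosphoinositide kinase gene, had probe sets that disagreed: the brighter one differed by -1.21 (adjusted p = 0.251) and the other by 0.35 (adjusted p = 0.496). The phosphatase gene Mtmr1 differed by -0.65 (adjusted p = 0.402) and Inpp4a, another phosphatase gene, by 0.27 (adjusted p = 0.481). Of 9 genes of the Akt branch tested, 0 passed in limma and 0 had an unadjusted p under 0.05, and the kinase gene Akt1 averaged 10830 ± 129 in knockout glands, against 12846 ± 969 in wild-type glands (SD, n = 3 each, limma adjusted p = 0.49). Tsc1, which restrains growth signalling, differed by 0.36 and the kinase gene Gsk3a by 0.12.

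Around Thrb, 11 genes of thyroid hormone receptors, cofactors, transport and targets were tested, and 0 passed in limma, with 0 at an unadjusted p under 0.05. Thra, the alpha receptor, was named after its values were seen: it read 5958, 5901 and 6655 on knockout arrays 1 to 3, against 5461, 5762 and 5257 on wild-type arrays 1 to 3 on its brighter probe set. It did not pass, with a log2 difference of 0.17 (limma adjusted p = 0.676), and its second probe set, at 0.47, did not either (adjusted p = 0.487). The hormone target Klf9 differed by 0.34 on its brighter probe set (adjusted p = 0.469) and by -0.60 on the other (adjusted p = 0.408). The coactivator gene Ncoa1 differed by -0.45 (adjusted p = 0.49) and the cofactor gene Bcl3 by -0.35 (adjusted p = 0.624).

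Among 12 tested regulators of the foetal zone and of adrenal development, 0 passed in limma and 2 had an unadjusted p under 0.05. Nr5a1, the master factor of steroidogenic cells, read 46424, 47107 and 47950 in knockout and 44277, 47254 and 40645 in wild-type arrays, which overlap. Nr0b1, a repressor of Nr5a1 targets, averaged 1781 ± 118 in knockout glands, against 3127 ± 1093 in wild-type glands (SD, n = 3 each), a log2 difference of -0.75 (limma adjusted p = 0.32), while its second, dim probe set was higher on every knockout array. Smad2, a signal carrier of the activin branch, which is known to act on the X zone in mice, differed by -0.59 (adjusted p = 0.32), and the activin receptor gene Acvr2b by 0.43 (adjusted p = 0.483). Among the settings tried, Smad2 passed in the one without knockout array 1.

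The relatives of Akr1c18 could be read in part. Of 18 aldo-keto reductase and progestin genes, 6 were tested, 0 passed in limma and 1 had an unadjusted p under 0.05. That one, Akr1c13, a reductase of the same gene cluster, read 9188, 7069 and 7547 on knockout arrays 1 to 3, against 11764, 12462 and 10482 on wild-type arrays 1 to 3. The groups did not overlap, yet the log2 difference of -0.55 ± 0.15 (SE) did not pass (limma adjusted p = 0.235), and members of this cluster are alike enough that probe sets may not tell them apart. Hsd11b1, which regenerates glucocorticoid, differed by 0.47 (adjusted p = 0.65) and the progestin-binding protein gene Pgrmc1 by -0.13.

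Relatives of Nr2f2 and Cdh1 did not pass either. Of 4 tested genes related to Nr2f2, 0 passed in limma and 0 had an unadjusted p under 0.05, with Nr2f6 at -0.15, Nr2c1 at -0.11 and the cofactor gene Zfpm1 at 0.18. Of 10 cadherin and catenin genes tested, 0 passed in limma and 1 had an unadjusted p under 0.05, Ctnna2, which encodes an alpha catenin, at 0.59 (adjusted p = 0.42). The junction genes Ctnnd1 and Jup differed by 0.29 and 0.28. The list's median log2 difference was 0.16, beside 0.00 over all tested genes.

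Of the 9 tested markers of the steroid-producing zones, 0 passed in limma and 1 had an unadjusted p under 0.05, Dab2, a gene of the outer cortex, at 0.37 (adjusted p = 0.402), with 0.02 and 0.05 on its other probe sets. Hsd3b6, a steroid dehydrogenase gene of the outer zone, differed by 1.32 but varied from 628 to 2994 in wild-type arrays (adjusted p = 0.475), and its family probe set may also read Hsd3b1. Shh, a signal of cortical progenitors, differed by -0.42 (adjusted p = 0.528). The summed signal of the 11 zone markers on the array was 547754 to 631038 in knockout and 509472 to 619602 in wild-type arrays.

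Over all 9 lists, 107 of 154 genes had a probe set and 77 were tested. In limma 0 passed, beside 0.388% of the 5663 tested genes, and 8 had an unadjusted p under 0.05, which is 10.4% beside a background of 10.7%. Their median log2 difference was 0.05, with 46 values higher and 31 lower.

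**Figure D2:**
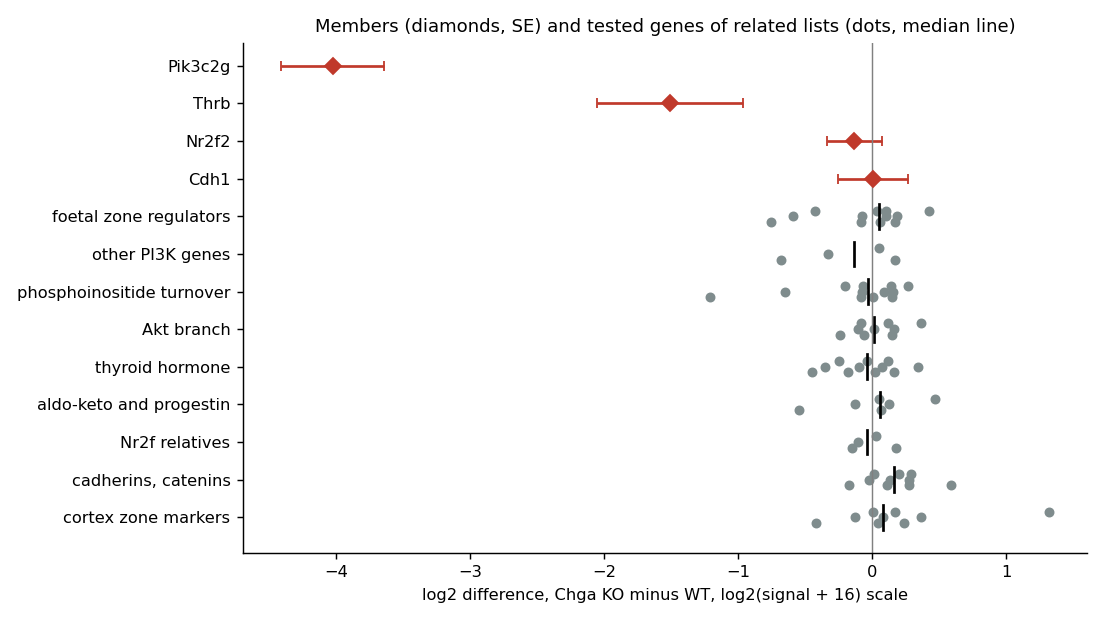
Log2 difference (knockout minus wild type, log2(signal + 16) scale) of the members, as diamonds with SE, and of the tested genes of the 9 related lists, as dots with a line at each list's median. Pik3c2g at -4.02 and Thrb at -1.51 lie left of Nr2f2 and Cdh1, while the listed genes lie between -1.21 and 1.32.

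The genes that neighbour Pik3c2g on chromosome 6 had smaller differences. Pik3c2g was chosen by its difference, which ranked 5 by size among the 7453 tested probe sets. Nearly any other genes would thus differ less, and the neighbours are given as a description only. The nearest measured genes on one side were Igbp1b, Mgst1 and Strap and on the other Capza3, Plekha5 and Aebp2. Strap, a gene of RNA-protein complex assembly and receptor signalling, had groups that did not overlap, with 1820, 1756 and 1576 in knockout and 2291, 2039 and 2295 in wild-type arrays, but its log2 difference of -0.36 did not pass (limma adjusted p = 0.469). Mgst1, a detoxifying transferase gene, was bright and variable in both groups, at 11988 to 25520 in knockout and 6135 to 33681 in wild-type arrays. Igbp1b and Capza3 were dim.

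Among the 10 tested genes on either side, 0 of 20 passed in limma and 1 had an unadjusted p under 0.05. Over all 5663 tested genes, 0.388% passed and 10.7% had an unadjusted p under 0.05, so that nothing is read from either count. Of the neighbours' values, 11 were lower and 9 higher, and the median was -0.10.

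**Figure D3:**
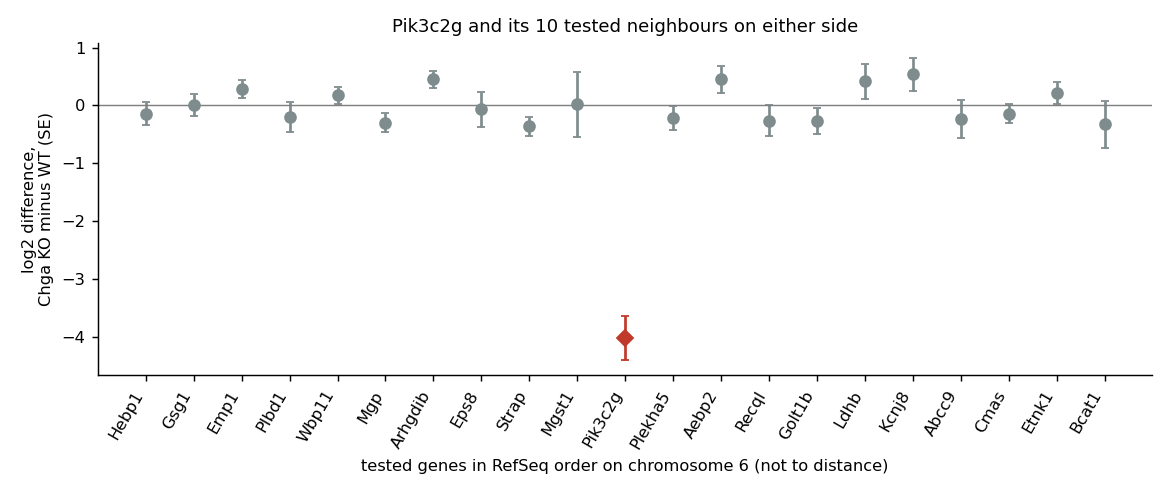
Log2 difference (knockout minus wild type) with SE for Pik3c2g, as a diamond, and its 10 tested neighbours on either side, in RefSeq gene order and not to distance. The neighbours lie between -0.36 and 0.54, and Pik3c2g, which was chosen by its difference, at -4.02.

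The profiles most like that of Pik3c2g were sought over the 6 arrays as the smallest root mean square distance between centred log2 profiles. This distance is not scaled for the size of the difference between the groups, by which Pik3c2g was chosen. Probe sets with a large fall in the knockout are thus bound to come out near it, and the list is a description only. The closest was Chga, the deleted gene itself, at a distance of 0.74. It was followed by Fdps, an enzyme gene of isoprenoid synthesis, at 0.90 and, on a second probe set, 1.09, by Hsd17b7, an enzyme gene of late cholesterol synthesis, at 0.97, and by Emb, the gene of embigin, an immunoglobulin-family adhesion protein, at 1.08. The median distance over all tested named probe sets was 2.08, and Thrb lay at 1.28. Chga, Hsd17b7, Emb and, by little, the closer Fdps probe set shared with Pik3c2g a knockout array 1 above the other knockout arrays. The second Fdps probe set did not. Emb read 2899, 1327 and 1650 in knockout and 6779, 6567 and 7960 in wild-type arrays.

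The profiles most like that of Thrb lay at distances of 0.21 for Psap, 0.22 for Gna12, 0.23 for Nrep, 0.25 for Ak3 and 0.26 for Man1a, beside a median of 1.04. These distances are not comparable with those for Pik3c2g, whose difference between the groups was larger. Nrep, named for neuronal regeneration, had 31144, 5224 and 9402 on knockout arrays 1 to 3, against 38176, 41056 and 37016 on wild-type arrays 1 to 3. Nrep and Ak3 had knockout array 1 below the wild-type arrays as well. Other probe sets of Ak3 and Man1a also had knockout arrays 2 and 3 below every wild-type array: Ak3 read 9376, 5043 and 4262 in knockout and 9045 to 9703 in wild-type arrays, and Man1a 1590, 959 and 1210 in knockout and 2327 to 2739 in wild-type arrays. Other probe sets of Psap and Gna12 did not. Psap, which encodes a lysosomal saposin precursor, read 2207, 614 and 500 in knockout and 1838, 3154 and 2736 in wild-type arrays on the Thrb-like probe set, but 25808, 35921 and 26345 in knockout and 22596, 22116 and 25226 in wild-type arrays on its brightest one. Gna12, a G protein gene, read 1990, 367 and 521 in knockout and 1944, 2230 and 1467 in wild-type arrays on the Thrb-like probe set, and 8027, 5708 and 5408 in knockout and 6958, 6745 and 5664 in wild-type arrays on the other.

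**Figure D4:**
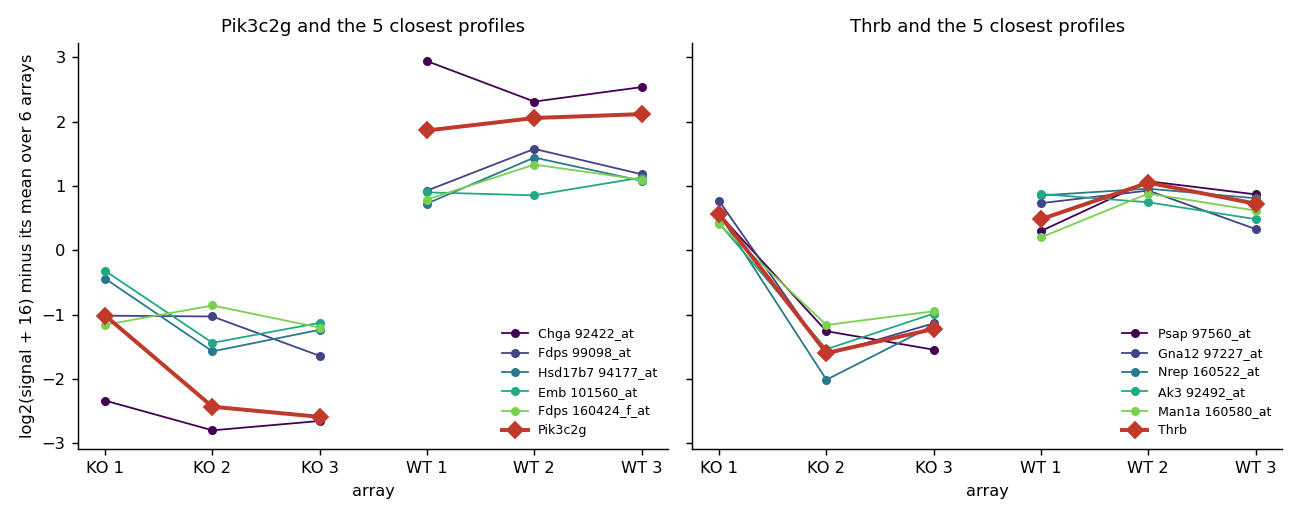
Centred log2(signal + 16) profiles over the 6 arrays of Pik3c2g (left) and Thrb (right), as thick lines with diamonds, and of the 5 closest tested probe sets of each, with knockout arrays left of wild-type arrays. The Thrb-like profiles share a knockout array 1 near or within the wild-type range, and the Pik3c2g-like profiles have all 3 knockout arrays below the wild-type arrays.

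The split of the knockout arrays seen for Thrb went with other measures. For the Gapdh control, the 3' probe set over the 5' one, a sign of RNA integrity, gave 0.831, 1.30 and 1.29 on knockout arrays 1 to 3 and 0.762 to 0.806 on the wild-type arrays, and the Actb control gave 1.32, 1.70 and 1.72 in knockout and 1.14 to 1.22 in wild-type arrays. Skeletal muscle markers, of which 14 of 14 had a probe set and none was at 0, summed to 12245, 88381 and 45092 on knockout arrays 1 to 3 and to 12457 to 13259 on the wild-type arrays. On knockout array 1, Pik3c2g was 8.15-fold below the wild-type geometric mean. The muscle marker sum of that array was below every wild-type sum, and its ratios lay above the wild-type arrays but below knockout arrays 2 and 3. Single muscle markers went either way on knockout array 1. Acta1 read 565 there, against 29.1 to 180.5 in wild-type arrays, and Tnnc2, on its brighter probe set, 298 against 759 to 1060. The part of RNA integrity and of muscle tissue in the Thrb and Pik3c2g values was not tested.

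Across the array, 21 of 7453 tested probe sets had knockout array 1 inside the wild-type range and knockout arrays 2 and 3 both more than 2-fold below the lowest wild-type array. With knockout array 2 or knockout array 3 as the one inside the range there were 0 and 0. These probe sets stood for 18 named genes, 10 of which had other tested probe sets, and 4 of those 13 others had knockout arrays 2 and 3 below every wild-type array. The mirror pattern, with knockout array 1 in the range and the others more than 2-fold above it, held for 6 probe sets.

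Summed marker signals of other cell types did not overlap between the groups for chromaffin cells, fibroblasts and endothelium and overlapped for macrophages, kidney, liver and fat cells. Chromaffin markers, 7 of 11 with a probe set, summed to 193722 to 205818 in knockout and 162324 to 180276 in wild-type arrays. Most of that gap lay in Chgb, a granin gene, which averaged 103998 in knockout and 74187 in wild-type arrays, while the groups overlapped for Th, Pnmt, Ddc and Scg2 and Pnmt averaged 36439 in knockout and 42136 in wild-type arrays. Fibroblast markers, 7 of 7, gave 56348 to 68115 in knockout and 40165 to 54279 in wild-type arrays. Most of that gap lay in Dcn, which encodes decorin and averaged 29393 in knockout and 17719 in wild-type arrays, while the groups overlapped for Lum and the collagen genes Col1a1, Col1a2 and Col3a1. The brightest Pdgfra probe set was also higher on every knockout array, at 5394 to 6592 against 2589 to 4664 in wild-type arrays. So was Pdgfrb, at 772 to 1174 against 627 to 755. On the other Pdgfra probe sets the groups overlapped, with log2 differences of -0.14 and, on a dim one, -1.74. Endothelial markers, 7 of 7, gave 29653 to 38351 in knockout and 27421 to 29397 in wild-type arrays. Most of that gap lay in Eng, which averaged 13824 in knockout and 9929 in wild-type arrays. Tek was also higher on every knockout array, while the groups overlapped for Cdh5, Kdr, Emcn and Pecam1. Flt1 overlapped on its brighter probe set and was higher on every knockout array on the other. Macrophage markers, 8 of 8, gave 14286 to 25216 in knockout and 11638 to 14692 in wild-type arrays. Of 6 kidney markers, 6 had a probe set and 0 passed the filter, and they summed to 1199 to 1767 in knockout and 1466 to 2262 in wild-type arrays. Liver markers, 6 of 6, summed to 16229 to 35940 in knockout and 13007 to 34680 in wild-type arrays. Most of that sum was Cyp2e1, at 14776 to 30758 in knockout and 10341 to 32507 in wild-type arrays. Alb read 504, 2909 and 2811 on knockout arrays 1 to 3, against 678 to 832 in wild-type arrays. No other liver marker had knockout arrays 2 and 3 both above every wild-type array. Fat cell markers, 5 of 7, summed to 31752 to 49994 in knockout and 25362 to 42151 in wild-type arrays. None of these markers was at 0, and their part in the member values was not tested.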

How the data were processed

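Adrenal RNA of 3 Chga knockout and 3 wild-type mice was labelled with biotin and hybridised to Affymetrix arrays of 1 colour; groups follow the sample titles. The deposited values are linear intensities, 1 per probe set and array, for which the submitters' processing notes name MAS5. Neither the MAS5 version nor the target of its scaling was found in the labels, and detection calls were not used. The authors' scaling gave every array the same trimmed mean (2501), so no further normalization was applied.

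After 66 control probe sets were left out, 10833 probe sets had 1 symbol in the platform annotation, 396 several and 1193 none. Symbols were updated through Entrez identifiers with a RefSeq table of GRCm38 (16 unmatched). The comparison used limma (version 3.58.1, R 4.3.3) on log2(signal + 16), with an intensity trend and Benjamini-Hochberg adjustment over the 7453 probe sets at or above the 40th percentile; the threshold was 0.05, and the fit was tested on simulated data. Fold changes on this scale understate those of dim genes. A listed gene was represented by its brightest tested probe set. Named were all member probe sets, Chga, the 3 genes with the lowest unadjusted p in each list, the 3 measured neighbours of Pik3c2g on either side and the 5 profiles closest to Pik3c2g and to Thrb; any other gene was picked with its values in view. The members and lists were chosen with earlier results of these data known. Each array was read as 1 mouse, and p-values measure the spread between these arrays, whose number limits the precision.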

Additional observations from a re-analysis of the deposited data

How the results depend on the processing

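Against 33 probe sets called in all, the count was 17 without an intensity trend and 57 with the replicate number as a block. It ranged from 15 to 141 when 1 array was left out: 141 without knockout array 1, 15 without knockout array 3, and 17 and 21 without wild-type arrays 2 and 3. With knockout array 1 alone, an alternative chosen after seeing the data, it was 13, which is not comparable with the counts of 3 against 3, since the spread then comes from the wild-type arrays and the lone array is assumed to vary like them. The deviations of same-numbered arrays from their group means had correlations of 0.26, -0.04 and -0.04, beside -0.18 to 0.25 for differently numbered arrays. With so few arrays these values cannot tell whether the numbers pair samples. The count of related genes called stayed 0 under the other settings and ranged from 0 to 1 when 1 array was left out, with Smad2 lower without knockout array 1 and Pip4k2c lower without wild-type array 1. With knockout array 1 alone the log2 difference was -3.03 for Pik3c2g, -0.19 for Thrb, 0.23 for the brighter Nr2f2 probe set and -0.42 for Cdh1. The other settings, which were pseudocounts of 1 and 64, quantile and median scaling, the block and leaving out 1 array, moved no member by more than its spread between arrays; Pik3c2g lay between -4.52 and -3.74. Pik3c2g fell below a filter at the 60th percentile and was not tested there. The causes of these shifts were not tested.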

Other observations

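Among the 21 probe sets that, like Thrb, had knockout array 1 at the wild-type level and the other knockout arrays low, some were bright. The genes here were chosen after their values were seen. Cyp2f2, which encodes a cytochrome P450, read 27907, 1551 and 6428 on knockout arrays 1 to 3, against 43493, 22908 and 28136 on wild-type arrays 1 to 3. Frzb, a secreted inhibitor of Wnt signalling, read 15303, 311 and 2860 in knockout and 27205, 10889 and 13714 in wild-type arrays. Cd1d1, which presents lipid antigens, read 22986, 6410 and 8282 in knockout and 30482, 31269 and 18368 in wild-type arrays, and Car8, a carbonic anhydrase relative, 3885, 427 and 466 in knockout and 4637, 5274 and 1982 in wild-type arrays. Each of these had 1 knockout array within the range of the wild-type arrays and 2 far below it. Whether other tissue in the glands, RNA integrity or a difference between the mice goes with these values was not tested.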
